A study of Mus musculus with 4 samples.

Results

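Emx1, Emx2, Pax6, Lhx2, Dlx1, Dlx2, Gsx2 and Eomes encode transcription factors that pattern the embryonic forebrain, and the accessible DNA at their loci was compared between oligodendrocytes (OLs) and oligodendrocyte progenitor cells (OPCs). The 8 genes were taken by name from 21887 annotated protein-coding genes of the mouse. At each gene, peaks were collected in a gene window, which is the annotated interval plus 2 kb on each side, and in the flanks, which are the next 50 kb on each side. The assay was Omni-ATAC-seq, where Tn5 transposase cuts and tags open DNA in nuclei. The groups were OLs sorted for the surface antigen O1, with 1 library from the line 129O1 and 1 from the line EpiSC5, and OPCs, with 1 library from each of the same lines. Both are lines of epiblast stem cells, which are pluripotent, and the labels name 129SvEv and 129S1/SvImJ as the strains behind them. The cells of both groups thus arose in culture and not in a brain. The OPCs were kept in medium with 20 ng/mL of bFGF and of PDGFA, without sonic hedgehog, and had been sorted on CD140a and NG2 after 4 passages. The same growth factor concentrations and number of passages are also recorded for the OL libraries. Each group held n = 2 libraries, and nothing in the labels says that these were independent differentiations, so the p-values reflect only how much these libraries vary.

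In the embryonic telencephalon, Emx1, Emx2, Pax6 and Lhx2 are expressed in progenitors of the dorsal part, the pallium, which forms the cerebral cortex. Eomes, also known as Tbr2, marks the intermediate progenitors that arise from them and later give excitatory neurons. Gsx2, Dlx1 and Dlx2 act in the ventral part, the subpallium, where they promote the fate of inhibitory neurons, and Dlx1 and Dlx2 are known to restrain the formation of oligodendrocyte progenitors there. CpG-rich promoters can be accessible in cells that do not transcribe the gene, so a peak is no measure of expression, which was not measured in these libraries.

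The promoters of 4 of these genes are shown because they span what the lists hold at the starts: a peak that was shorter in OLs than in OPCs (Emx2), a broad peak in every library (Lhx2), no peak in any library (Gsx2), and a peak in 1 OPC library alone (Eomes). Each runs from 250 bases before to 50 bases after the annotated start, 5′ to 3′ in the direction of the gene, from RefSeq on GRCm38.p6, the assembly also named mm10. Capitals mark the bases that lay inside a peak of both OL libraries.
Emx2, chr19:59458440-59458739, plus strand: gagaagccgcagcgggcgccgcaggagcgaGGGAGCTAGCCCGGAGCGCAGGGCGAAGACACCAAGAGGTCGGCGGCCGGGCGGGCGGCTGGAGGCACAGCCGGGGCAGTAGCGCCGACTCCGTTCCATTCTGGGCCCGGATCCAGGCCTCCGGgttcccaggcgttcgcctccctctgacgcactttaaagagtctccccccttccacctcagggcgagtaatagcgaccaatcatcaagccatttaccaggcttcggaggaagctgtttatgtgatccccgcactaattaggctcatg
Lhx2, first start, chr2:38339031-38339330, plus strand: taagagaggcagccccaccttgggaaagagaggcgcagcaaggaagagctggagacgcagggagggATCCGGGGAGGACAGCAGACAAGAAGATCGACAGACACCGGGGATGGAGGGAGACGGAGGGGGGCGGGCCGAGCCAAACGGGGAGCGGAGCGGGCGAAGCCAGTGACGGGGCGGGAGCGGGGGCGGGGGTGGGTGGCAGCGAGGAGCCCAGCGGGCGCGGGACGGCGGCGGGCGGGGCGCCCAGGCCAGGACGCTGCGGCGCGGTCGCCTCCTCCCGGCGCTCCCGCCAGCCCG
Gsx2, chr5:75075351-75075650, plus strand: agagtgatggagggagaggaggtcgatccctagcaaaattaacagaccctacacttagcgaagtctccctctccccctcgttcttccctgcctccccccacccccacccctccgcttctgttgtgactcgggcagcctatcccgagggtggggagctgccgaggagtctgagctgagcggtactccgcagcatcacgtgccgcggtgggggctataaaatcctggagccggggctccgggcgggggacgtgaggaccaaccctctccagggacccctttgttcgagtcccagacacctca
Eomes, chr9:118477939-118478238, plus strand: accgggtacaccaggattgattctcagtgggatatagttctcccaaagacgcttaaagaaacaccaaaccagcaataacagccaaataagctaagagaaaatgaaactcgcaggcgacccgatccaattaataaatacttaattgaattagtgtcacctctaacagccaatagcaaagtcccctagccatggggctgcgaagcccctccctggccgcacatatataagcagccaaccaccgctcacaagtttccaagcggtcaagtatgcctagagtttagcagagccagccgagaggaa

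The capitals cover 124 of the 300 bases for Emx2 and 234 for Lhx2, and there are none for Gsx2 or Eomes. In the same windows the OPC peaks covered 250 and 300 bases of Emx2 in 129O1 and EpiSC5, and all 300 bases of Lhx2 in both. No library had a peak in the Gsx2 window, and only the EpiSC5 OPC library had one in the Eomes window, over all 300 bases. All 4 libraries had a peak at 6 of the 10 annotated starts of the 8 genes, against 53.5% of all annotated starts, and none of the 10 had a peak in both OPC libraries alone, as 2.08% of all starts had. The 10 starts held between 10 CpG dinucleotides in 300 bases (Eomes) and 37 (Emx1), against a median of 13 over all 21263 annotated promoters. Over all promoters the median was 23 CpG where all 4 libraries had a peak and 3 where none had. The Gsx2 promoter (17 CpG) and the 2 Pax6 promoters (18 and 16 CpG) lay above the overall median without holding a peak. On both strands, TAATT, the core of many homeodomain sites, was found at 4 of the 10 starts, against 23.45% of all promoters. These were Emx2, Gsx2, Eomes and the second start of Pax6. In the Emx2 sequence it lies 36 bases after the start, in the palindrome TAATTA that gives a match on each strand, and outside the capitals. In the Eomes sequence it occurs 3 times between -125 and -105, and the matches overlap neither each other nor an OL peak. TATAAA, a common form of the TATA box, was found only in Gsx2, 38 bases before the start, against 12.6% of all promoters. Other forms of the TATA box were not searched for, so the remaining starts, Eomes among them, may hold them. GGGCGG, the GC box, occurred at 6 of the 10 starts, against 46.2% of all promoters, with 4 matches in Lhx2 and 2 overlapping matches in Emx2, all within the capitals. CAGCTG, an E-box, occurred at none of the 10, against 15.56% of all promoters.

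The peak lists held 127196 and 152595 peaks in OLs and 129534 and 125002 in OPCs, in the order 129O1 and EpiSC5, which covered 35.02 to 41.2 Mb in OLs and 38.6 to 44.1 Mb in OPCs. Covered length was therefore scaled to the mean list total, by factors of 0.901 to 1.13, and values below in scaled kb refer to this, with the 129O1 library before the EpiSC5 library in each pair of values. Before scaling, the median peak width was 190 and 192 bp in OLs and 201 and 237 bp in OPCs. The EpiSC5 OPC list had the fewest peaks but the most covered sequence. The lists hold no read counts, so depth is unknown and a missing peak shows only that none passed the caller's threshold. The labels were checked against markers by covered sequence. Enpp6, which marks newly formed OLs, had 5.17 and 5.20 scaled kb in OLs against 2.10 and 2.18 in OPCs (limma, adjusted p = 2.15e-05), and Mag, a myelin gene, 0.533 and 1.30 against 0 and 0.278 (limma, adjusted p = 0.0114). The progenitor genes Pdgfra (2.84 and 2.80 against 2.19 and 2.48) and Cspg4 (4.49 and 4.29 against 4.22 and 4.02), which encode the antigens CD140a and NG2 of the OPC sort, did not pass the test, with adjusted p = 0.283 and 0.751. Over the whole lists, 5 of 7 tested OL markers rose in OLs, while Mbp (adjusted p = 0.0513) and Cnp (0.319) did not pass, and of 6 OPC markers 0 fell and 1 rose, Sox6, with 22.8 and 24.2 scaled kb in OLs against 16.9 and 15.7 in OPCs (limma, adjusted p = 0.00122). By covered sequence, no OPC marker was thus called higher in the OPC libraries. All comparisons of covered length used limma across all genes with a mean of at least 500 scaled bp, on log2(scaled bp + 200), with Benjamini-Hochberg adjustment at 0.05, and fold differences below are on that scale. Of 14543 gene windows tested, 19.6% were called, 8.63% lower and 11.0% higher in OLs. Without scaling, 33.8% of the calls were higher in OLs instead of 56.1%, and the median of all genes lay at -0.13 instead of -0.02.

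Of the 8 genes, 7 passed the filter on covered length, and 2 of these fell in OLs, Eomes and Emx2, while none rose. Both passed the filter only through their OPC libraries, so that they had to differ, and the counts and the median over the 7 are a description that supports nothing. With no filter both were still called (limma, adjusted p = 0.0107 for Eomes and 0.0421 for Emx2), but this fit used the same values and is no separate support. Of the 7, 6 had a negative difference, against 53.1% of all tested genes, and the median was -0.33 on the log2 scale, against -0.02. In bulk samples, fewer cells with an accessible site and less accessibility per cell cannot be told apart. The plot of covered sequence by library shows all 8 genes.

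**Figure D1:**
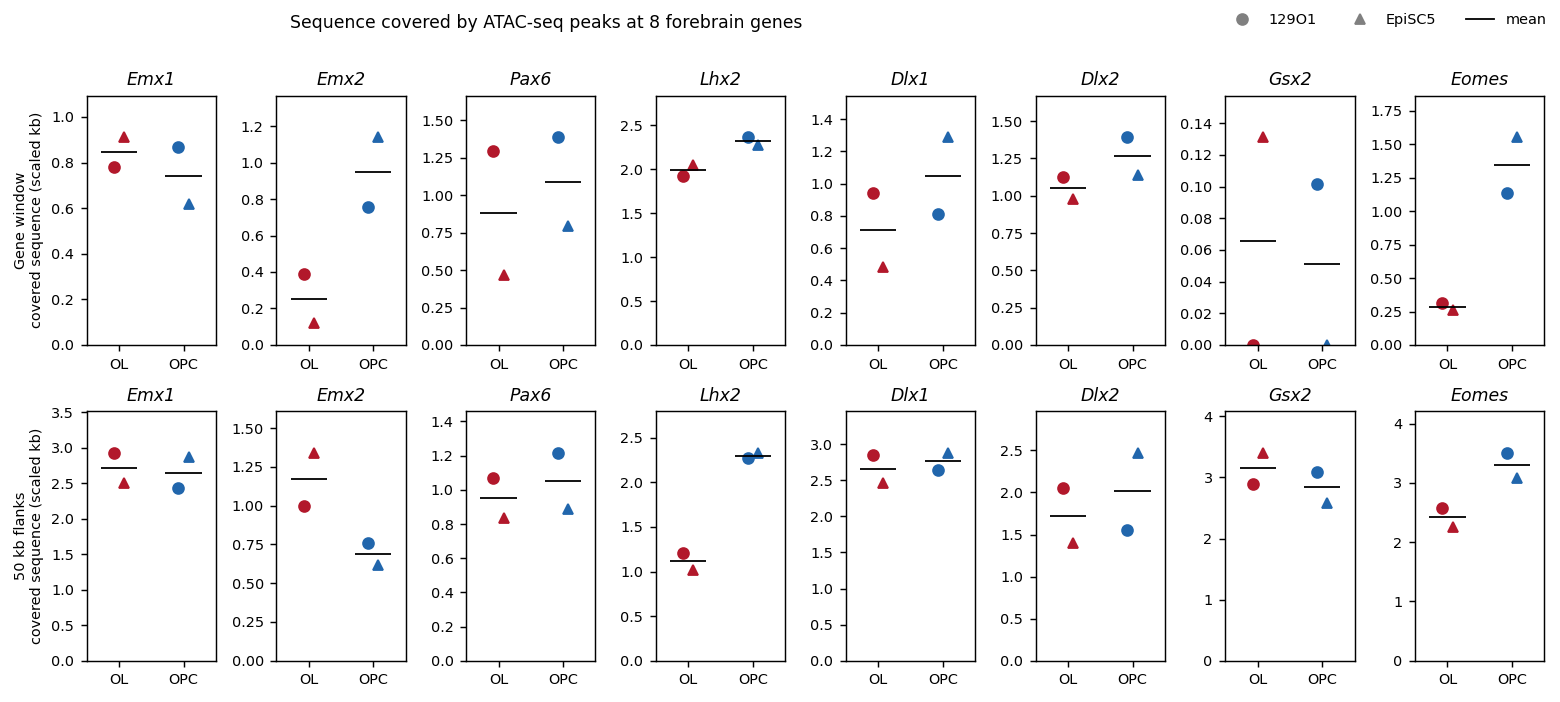
Covered sequence (scaled kb, vertical axes from 0) at the 8 genes in the gene window (top row) and in the 50 kb flanks (bottom row), with OL libraries in red and OPC libraries in blue, circles for 129O1, triangles for EpiSC5 and bars for the mean of n = 2. In the gene windows of Eomes and Emx2 and in the flanks of Lhx2 both OL libraries lie well below both OPC libraries.

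Among the genes of the dorsal telencephalon, Emx2 had 0.387 and 0.120 scaled kb of peaks in the OL libraries of 129O1 and EpiSC5, against 0.754 and 1.14 scaled kb in the OPC libraries. Both OL values lay below both OPC values. This was so at 4 of the 7 tested genes, namely Emx2, Lhx2, Dlx2 and Eomes, and at 28.1% of all tested windows, while the converse held at 0 of the 7 and at 27.4% of all tested windows. The means were 0.253 ± 0.189 in OLs and 0.947 ± 0.272 scaled kb in OPCs (SD, n = 2 each). The difference was -1.38 ± 0.34 on the log2 scale (SE; limma, adjusted p = 0.00654), a 2.61-fold lower covered length in OLs, and stood at percentile 0.73 of all tested genes. Emx2 is a short gene (chr19:59458690-59465357), and its window also holds part of the antisense gene Emx2os, from which unstranded ATAC peaks cannot be told apart. The call was lost with median-of-ratios scaling (-1.38, adjusted p = 0.062) and with no scaling (-1.48, 0.0865), where the difference kept its size. It was also lost by the number of peaks (-0.64, adjusted p = 0.475), by 200 bp around the summits (-0.52, 0.489) and with 20 kb on each side of the gene (-0.12, 0.753), where the difference was smaller, and adjusted p ranged from 0.00109 to 0.753 over all alternatives. Without the EpiSC5 OPC library the window fell below the filter, so no value was obtained.

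Emx1, the paralog of Emx2, had 0.782 and 0.911 scaled kb in OLs against 0.868 and 0.617 in OPCs, with overlapping groups and a difference of 0.16 ± 0.22 (SE; limma, adjusted p = 0.693). Pax6, a paired-box regulator of pallial progenitors, had 1.29 and 0.466 scaled kb in OLs against 1.39 and 0.792 in OPCs. Here the cell lines stood further apart than the cell types, and the difference of -0.33 ± 0.29 did not pass the test (SE; limma, adjusted p = 0.494). Lhx2, a LIM-homeodomain selector of cortical identity, had 1.92 and 2.05 scaled kb in OLs against 2.36 and 2.27 in OPCs. The groups did not overlap, but the difference of -0.20 ± 0.15 did not pass the test (SE; limma, adjusted p = 0.42). The sign of the Lhx2 difference turned by the number of peaks (0.57; limma, adjusted p = 0.317) and by 200 bp around the summits (0.51; 0.298). The Pax6 value rested on single libraries. Without the 129O1 OL library it was called, at -0.92 (limma, adjusted p = 0.0196, with 0.0196 to 0.995 over all alternatives). It was -0.67 without the EpiSC5 OPC library, but 0.01 without the 129O1 OPC library and 0.25 without the EpiSC5 OL library, where the sign turned.

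Eomes differed most among the 8 genes. Its window held 0.311 and 0.262 scaled kb in OLs, against 1.13 and 1.55 scaled kb in OPCs. The groups were far apart relative to their spread, with means of 0.287 ± 0.0343 in OLs and 1.34 ± 0.296 scaled kb in OPCs (SD, n = 2 each). The difference was -1.65 ± 0.24 on the log2 scale (SE; limma, adjusted p = 0.000123), 3.15-fold lower in OLs, at percentile 0.38 of all tested genes. It was -1.39 in 129O1 and -1.92 in EpiSC5, against -0.70 and -2.07 for Emx2 in the same lines. Eomes was called under each of the 15 alternatives that gave a value, with differences between -2.04 and -0.86.

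Among the genes of the ventral telencephalon, Dlx1 had 0.944 and 0.485 scaled kb in OLs against 0.813 and 1.29 in OPCs. In 129O1 the OL value was the higher and in EpiSC5 the lower, and the difference of -0.47 ± 0.25 did not pass the test (SE; limma, adjusted p = 0.206). It was called without the 129O1 OL library, at -0.85 (limma, adjusted p = 0.027, with 0.027 to 0.87 over all alternatives), and was -0.75 without the 129O1 OPC, -0.19 without the EpiSC5 OPC and -0.10 without the EpiSC5 OL library. Its neighbour Dlx2, which is transcribed from the opposite strand, had 1.13 and 0.976 scaled kb in OLs against 1.39 and 1.14 in OPCs, and the difference of -0.22 ± 0.17 did not pass the test (SE; limma, adjusted p = 0.433). With the gene interval alone, without the 2 kb on each side, the sign of the Dlx2 difference turned (0.23; limma, adjusted p = 0.506). Gsx2, which acts upstream of Dlx1 and Dlx2 in the lateral ganglionic eminence, had 1 peak of 136 bp in the EpiSC5 OL library and 1 peak of 99 bp in the 129O1 OPC library, at different places, and none in the other libraries. It stayed below the filter and was not tested.

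Per length of window, the order of the genes differed between the cell types, as a description. Peaks covered 13.5% and 13.8% of the Dlx2 window in OLs and 18.4% and 17.2% in OPCs, the highest of the 8 genes in each library. This placed Dlx2 between percentiles 94.8 and 97.1 of all gene windows in every library. In OLs, Dlx2 was followed by Dlx1 (8.43% and 5.10%) and Lhx2 (4.91% and 6.17%), whose ranges overlap, and then by Emx1, Pax6, Emx2 and Eomes, at 1.16% to 4.602%. In OPCs, Dlx1 (8.01% and 14.5%), Eomes (9.23% and 14.4%) and Emx2 (6.87% and 11.8%) followed Dlx2 with overlapping ranges, and Lhx2 (6.67% and 7.32%), whose range overlaps that of Emx2, came before Emx1 and Pax6, at 2.62% to 4.11%. Gsx2 was at 0% and 2.16% in OLs and 1.57% and 0% in OPCs. The Eomes window thus stood at percentiles 44.7 and 41.1 of all gene windows in OLs, against 86.1 and 93.2 in OPCs, and the Emx2 window at 54.9 and 29.9 in OLs, against 78.3 and 89.7 in OPCs. In OLs both were near the middle of all genes or below it.

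**Figure D2:**
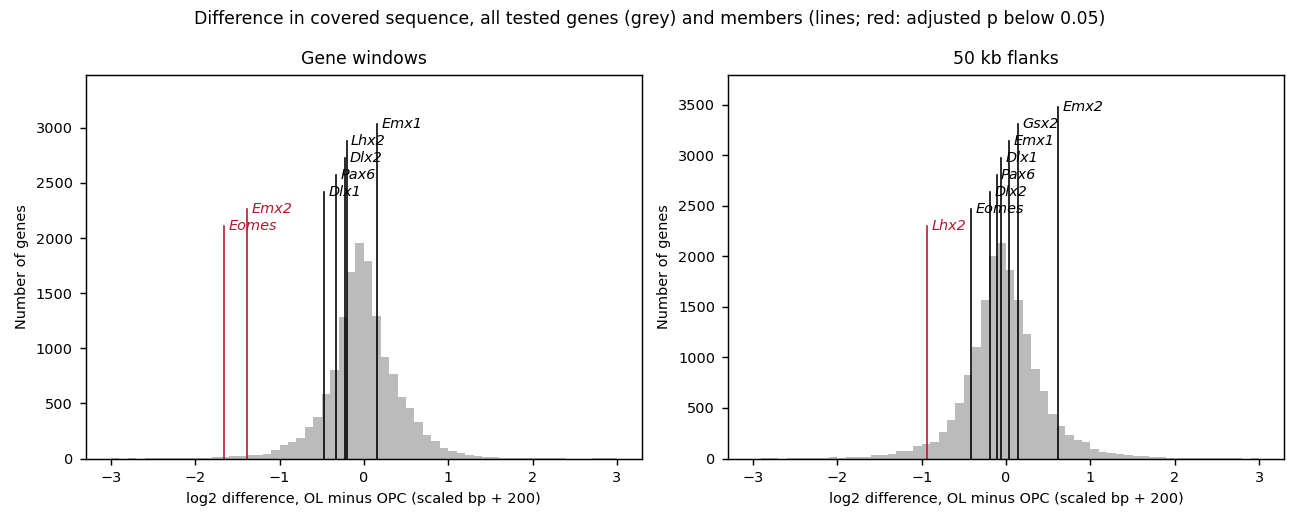
Distribution of the log2 difference, OL minus OPC, over all tested genes (grey, bins counted on the vertical axis) in gene windows (left) and 50 kb flanks (right), with a line for each of the 8 genes that passed the filter, red where the adjusted p is below 0.05. Eomes and Emx2 lie in the lower tail for the gene windows at -1.65 and -1.38, and Lhx2 for the flanks at -0.93.

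The peaks behind these sums were next followed at the annotated starts. At Emx2, the start region (chr19:59458075-59458789) had a peak in every library, of 134 and 124 bp in OLs against 329 and 715 bp in OPCs, so that its scaled mean in OLs was 0.276 of that in OPCs. In bases from the start, negative upstream, the OL peaks began at -222 and -220 and ended at -89 and -97, upstream of the start. The OPC peaks crossed the start and ended at 28 and 99. In the sequence above, the capital stretch with the GC boxes lay in peaks of all 4 libraries, and TAATTA lay in the peak of the EpiSC5 OPC library alone. A second region 0.7 kb into the gene had 207 and 0 bp in OLs against 404 and 549 bp in OPCs. The start region was thus in all 4 lists, with shorter peaks in OLs. Its peaks were weak in every library, and none had a fold above percentile 27.2 of its list. The authors' fold over background was at most 5.2 and 4.24 in OLs and 4.67 and 5.34 in OPCs, with overlapping groups. In the second region it was at most 4.37 in the 129O1 OL library, against 4.58 and 4.56 in OPCs. How far the shorter peaks depend on the caller's threshold was not tested.

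At Eomes the region around the start was in OPC lists only. Peaks of 214 and 242 bp (chr9:118477293-118477612) and of 85 and 594 bp (chr9:118477686-118478279) were listed in OPCs of 129O1 and EpiSC5, and none in OLs of either line. These were the only 2 OPC-only regions (both OPC lists, neither OL list) in the 8 gene windows. Their peaks were weak, with the authors' fold over background at most 4.63 and 3.58 in the first region and 3.82 and 5.60 in the second. These folds stood at percentiles 15.9 and 5.5, and 6.9 and 32.2, of their lists. The start itself lay in the EpiSC5 OPC peak alone, which ran from -503 to 90, while the nearest 129O1 OPC peak ended at -300. The start and the OPC-only regions also lie in the noncoding gene Gm33408 (chr9:118447241-118478732), from which unstranded peaks cannot be told apart. Beyond the start, at chr9:118478465-118479352, all 4 libraries had a peak, of 274 and 272 bp in OLs against 687 and 888 bp in OPCs, a scaled ratio of 0.38. The OL peaks began at 813 and 838, in the 3′ part of this OPC region. By the authors' own peak values, fold over background at this shared region was 7.18 and 8.32 in the OL lists, and 5.17 and 5.15 in the OPC lists.

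Over all 9698 regions that lie on an annotated start and are in all 4 lists, the median ratio of OL to OPC was 0.95, and both OL values lay below both OPC values at 27.9%. Before scaling, the median covered length of these regions was 809 bp in OLs against 954 bp in OPCs. Emx2 (0.276), the second start of Lhx2 (0.723) and its first start (0.876) were among those with both OL values below both OPC values. At the first start of Lhx2 (chr2:38338936-38340015) the peaks measured 788 and 866 bp in OLs against 1032 and 1012 bp in OPCs. At the second (chr2:38350410-38351919) they measured 906 and 861 bp in OLs against 1177 and 1510 bp in OPCs. The start of Emx1 (chr6:85187536-85188240) had 609 and 693 bp in OLs against 646 and 685 bp in OPCs, which after scaling put both OL values above both OPC values (ratio 1.06), as at 4.07% of such regions. The start of Dlx2 (ratio 1.12) and the start of Dlx1 (ratio 0.68) had overlapping groups. At Dlx1 the peak measured 832 and 503 bp in OLs against 790 and 1430 bp in OPCs, so the EpiSC5 libraries held both the shortest and the longest.

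Pax6 and Gsx2 had no peak at any annotated start, as was so at 38.2% of annotated starts. At Pax6 the region in all 4 lists lay between its 2 annotated starts (chr2:105675989-105676817), with 606 and 483 bp in OLs against 829 and 678 bp in OPCs. Beside it, a region at chr2:105675198-105675805 had 535 bp in the OL library and 520 bp in the OPC library of 129O1, and no peak in EpiSC5. This region followed the line and not the cell type. The map of peaks around each start shows these patterns.

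**Figure D3:**
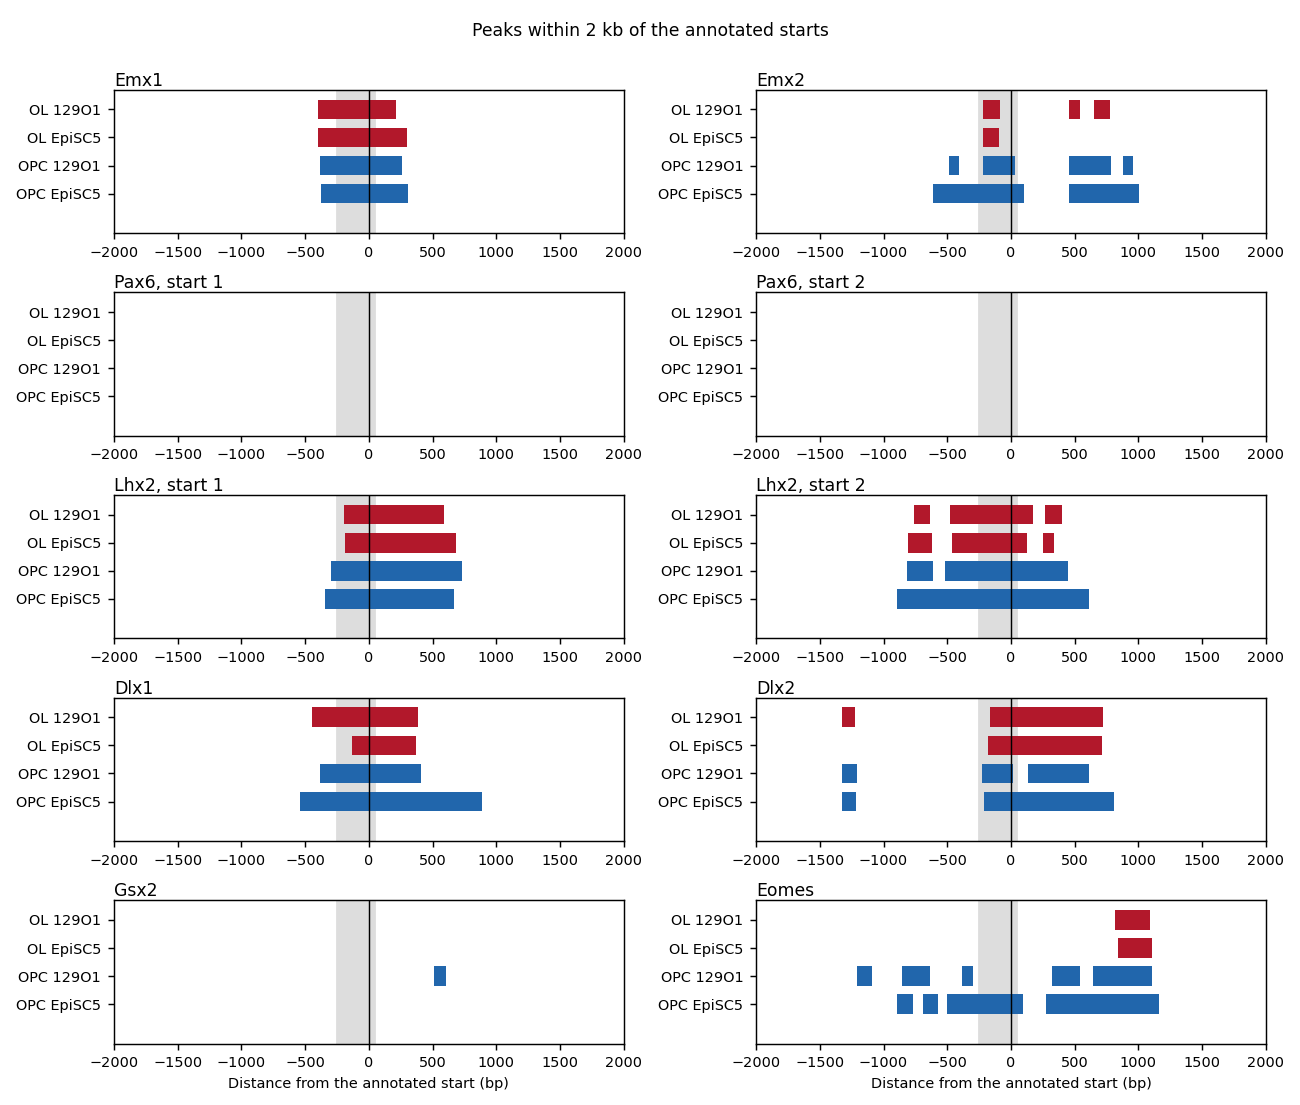
Peaks within 2 kb of each annotated start of the 8 genes (horizontal axis in bp from the start, negative upstream), with a row for each library, OL in red above OPC in blue. Grey bands mark the 300 bases of the promoter window. The OL peaks next to the Emx2 start stop before it, and the 129O1 OL library has further peaks from 458 bp on, while Eomes has no OL peak before 813 bp and Pax6 and Gsx2 have no peak at a start.

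In the flanks, 17595 genes were tested and 19.2% were called, 10.0% lower and 9.21% higher in OLs. Without scaling 23.7% of these calls were higher in OLs instead of 47.8%, and the median of all genes lay at -0.15 instead of -0.04. All 8 genes passed the filter there, and 1 of them, Lhx2, fell in OLs, while none rose. The flanks of Lhx2 held 1.21 and 1.01 scaled kb in OLs, against 2.27 and 2.33 scaled kb in OPCs. Both OL values lay below both OPC values here and at Eomes, 2 of the 8 genes, as at 33.3% of all tested flanks. The means were 1.11 ± 0.141 in OLs and 2.301 ± 0.0413 in OPCs (SD, n = 2 each). The difference was -0.93 ± 0.20 on the log2 scale (SE; limma, adjusted p = 0.0068), 1.91-fold lower in OLs, and was -0.81 in 129O1 and -1.06 in EpiSC5. The call was lost with flanks of 20 kb (adjusted p = 0.229) and when peaks were counted (0.15) or set to 200 bp around their summits (0.164), and it was kept under the other 14 of 17 alternatives, with adjusted p from 0.00036 to 0.229 over all of them.

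The regions with the largest differences lay 3′ of Lhx2. The longest (chr2:38395038-38395820, 44.1 kb from the nearer annotated start) had 204 and 0 bp in OLs against 700 and 742 bp in OPCs. Further out, at 61.5 kb, an OPC-only region (chr2:38412652-38412897) had 165 and 246 bp in OPCs, where the authors' fold over background was 11.7 and 15.5. A region in all 4 lists at 24.7 kb (chr2:38375692-38376236) had 380 and 161 bp in OLs against 540 and 523 bp in OPCs. On the 5′ side, the shared region at the start of Dennd1a, a gene of endosomal traffic, had 888 and 955 bp in OLs against 1020 and 1053 bp in OPCs, and its scaled groups overlapped. This region reached only in part into the flank. That side also held the OPC-only region chr2:38302015-38302144, with 112 and 113 bp, and the flanks' OL-only region (both OL lists, neither OPC list), chr2:38312937-38313098, with 135 and 161 bp.

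At Emx2 the flanks ran opposite to the gene window, with 1.00 and 1.34 scaled kb in OLs against 0.762 and 0.615 in OPCs. Both OL values lay above both OPC values, as at 27.7% of tested flanks, but the difference of 0.62 ± 0.29 did not pass the test (SE; limma, adjusted p = 0.149), and the difference between window and flank was not tested. The largest OL-only region at any of the 8 genes lay here, at 23.5 kb (chr19:59481899-59482555), outside protein-coding genes. Its peaks measured 342 and 657 bp, with the authors' fold over background at 10.6 and 13.3. An OPC-only region lay upstream of the gene at -26.2 kb (chr19:59432348-59432652), within Emx2os, with 201 and 305 bp. A shared region at -40.5 kb (chr19:59418053-59418353) was nearly even, with 247 and 247 bp in OLs against 301 and 248 bp in OPCs.

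The flanks of Eomes had 2.58 and 2.26 scaled kb in OLs against 3.51 and 3.09 in OPCs. The groups did not overlap, but the difference of -0.42 ± 0.15 missed the threshold (SE; limma, adjusted p = 0.0628). It passed with the cell line as a block (limma, adjusted p = 0.0197) and without the EpiSC5 OPC library (0.0359), and lay between 0.0197 and 0.54 over all alternatives. The region of a single cell type with the highest fold there was OPC-only, at -41.7 kb (chr9:118436289-118436662), with 374 and 364 bp and the authors' fold over background at 13.5 and 16.1. The OL-only regions, chr9:118517265-118517432 with 129 and 168 bp and chr9:118519039-118519394 with 314 and 172 bp, lay in Golga4, a gene of the Golgi apparatus. Golga4 also held the longest shared region of these flanks (chr9:118505993-118507300), with 1051 and 1020 bp in OLs against 1292 and 1238 bp in OPCs.

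None of the other genes passed the test in the flanks. Emx1 had 2.93 and 2.50 scaled kb in OLs against 2.43 and 2.87 in OPCs (0.03 ± 0.16, SE, and -0.08 without scaling; limma, adjusted p = 0.901), and Pax6 had 1.07 and 0.838 against 1.22 and 0.886 (-0.11 ± 0.28; limma, adjusted p = 0.815). With flanks of 100 kb Pax6 was called, at -0.72 (limma, adjusted p = 0.0171, with 0.0171 to 0.967 over all alternatives). All regions in the Pax6 flanks that were in both lists of a cell type lay in Elp4, the 3′ neighbour of Pax6 that is known to harbour distal Pax6 enhancers. Among them, a shared region (chr2:105715317-105715781) had 417 and 284 bp in OLs against 439 and 399 bp in OPCs. Its authors' fold over background, 13.6 and 17.3 in OLs and 11.6 and 10.9 in OPCs, put it at percentiles 96.7 and 99.2 of the OL lists and 89.3 and 84.9 of the OPC lists. The OPC-only regions of 133 and 175 bp and the OL-only regions of 145 and 215 bp in Elp4 were short. At Emx1 the OL-only region (chr6:85236006-85236332, 197 and 327 bp) and the OPC-only region (chr6:85219117-85219374, 178 and 258 bp) both lay in Sfxn5, a mitochondrial carrier gene, while the longest shared region, at the start of Spr, had 799 and 662 bp in OLs against 912 and 1014 bp in OPCs.

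Dlx1 and Dlx2 lie within each other's flanks, so their flank values share peaks and are not separate observations. The flanks held 2.86 and 2.46 scaled kb in OLs against 2.64 and 2.88 in OPCs for Dlx1 (-0.05 ± 0.15, SE; limma, adjusted p = 0.833), and 2.05 and 1.40 against 1.56 and 2.47 for Dlx2 (-0.19 ± 0.23; limma, adjusted p = 0.604). Single regions within these sums differed in both directions. In Metap1d, which encodes a mitochondrial aminopeptidase, the region chr2:71497309-71497870 had 544 and 544 bp in OLs against 98 and 0 bp in OPCs, and close to it the region chr2:71499005-71499675 had 107 and 145 bp against 168 and 671 bp. The OL-only region chr2:71479982-71480263, also in Metap1d, had 235 and 279 bp and the authors' fold over background of 11.9 and 16.7. On the other side of the pair, chr2:71580883-71581428 had 326 and 167 bp in OLs against 456 and 517 bp in OPCs. Between the 2 genes, a region at chr2:71542791-71543304 had 0 and 117 bp in OLs against 514 and 127 bp in OPCs, high in the 129O1 OPC library alone.

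Although its own window was almost bare, Gsx2 had flanks with 2.90 and 3.40 scaled kb in OLs against 3.09 and 2.58 in OPCs (0.14 ± 0.15, SE; limma, adjusted p = 0.536), more than those of Emx2, Pax6 or Lhx2 in every library. The longest region was at the start of Chic2 (chr5:75043667-75044904), with 1201 and 1188 bp in OLs against 1158 and 1197 bp in OPCs. A region at -12.2 kb (chr5:75063064-75063733) was in all 4 lists with 552 and 550 bp in OLs against 605 and 485 bp in OPCs, and the authors' fold over background lay between 12.6 and 15.0 in each. Close beside it lay the OL-only region of these flanks (chr5:75062619-75062951), with 331 and 317 bp. The map of peaks at each locus shows these regions in place.

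**Figure D4:**
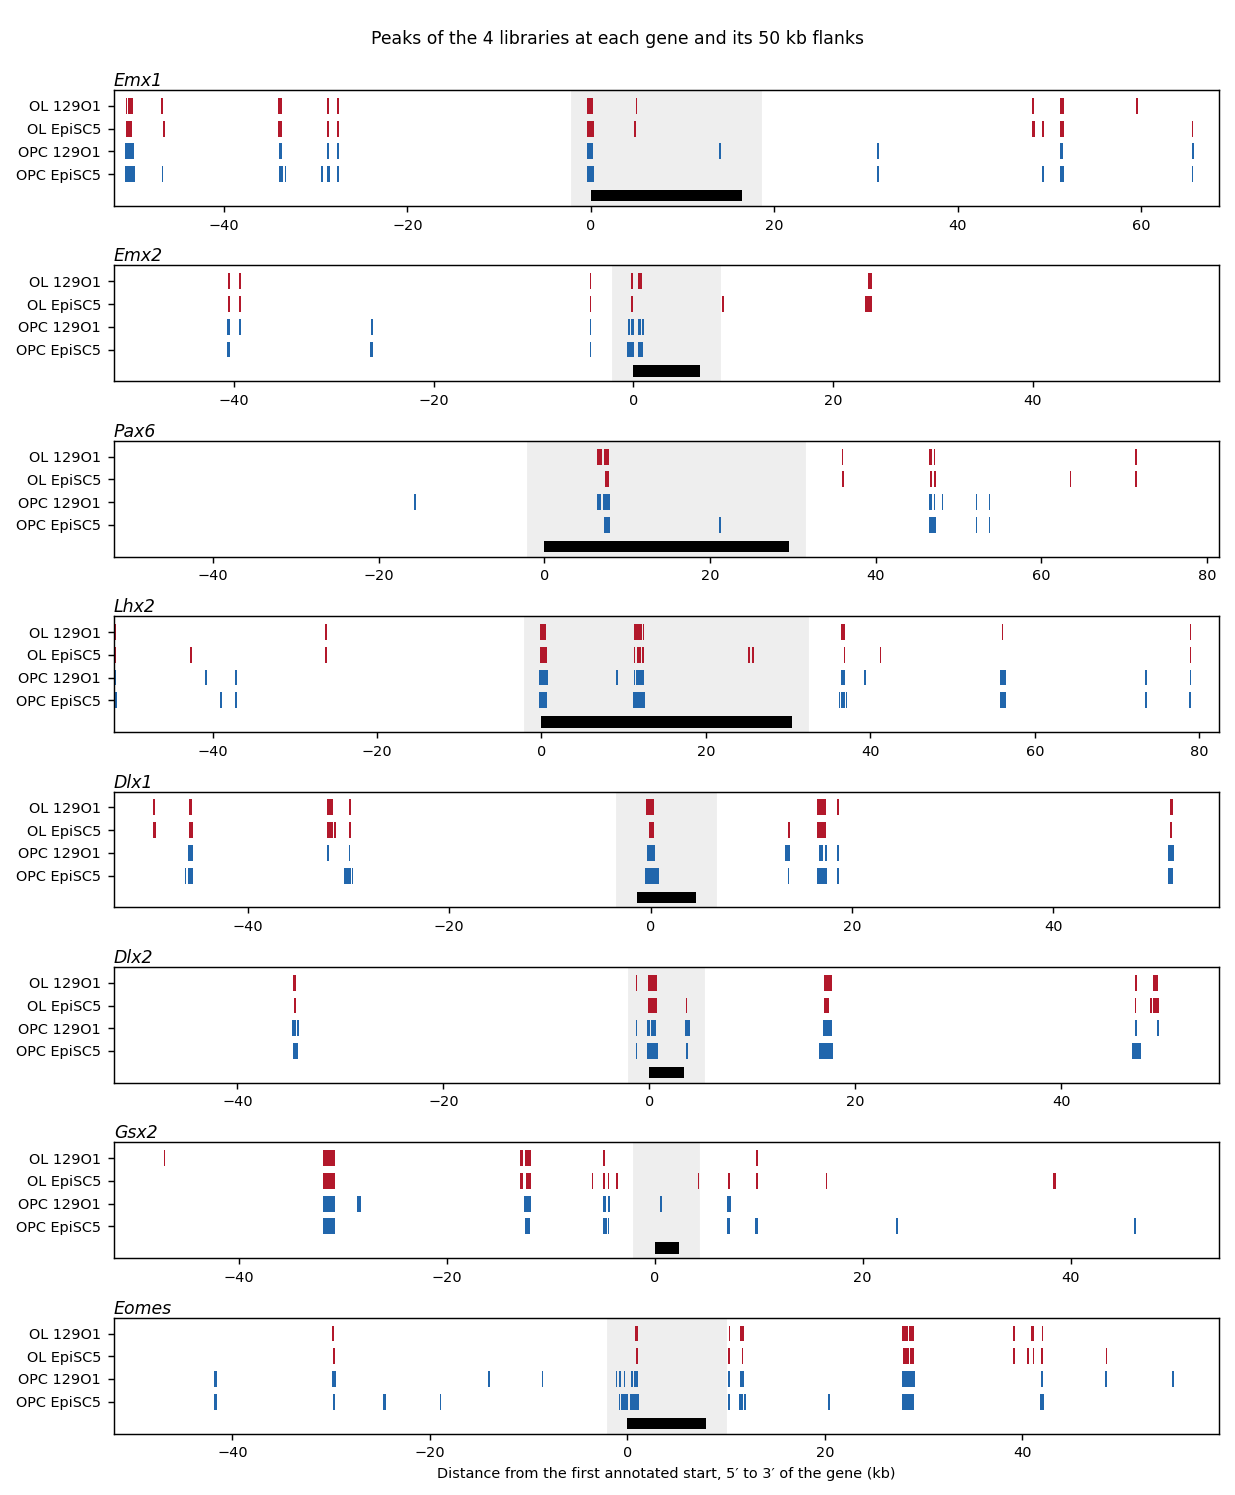
Peaks of the 4 libraries at each of the 8 genes and in the 50 kb flanks (horizontal axis in kb from the first annotated start, 5′ to 3′ of the gene), with OL rows in red above OPC rows in blue, the gene as a black bar and the gene window in grey. Less sequence is covered at Eomes and Emx2 in the OL rows than in the OPC rows, an OL-only region lies 23.5 kb from the Emx2 start, and Gsx2 has peaks in its flanks but nearly none in its window.

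Counting each merged region once, the 8 gene windows held 23 regions, 1 OL-only (in Emx1, chr6:85192642-85192893, with 80 and 252 bp), 2 OPC-only (in Eomes), 8 in all 4 lists and 12 in other combinations. OL-only regions thus occurred in 1 of the 8 windows, against 36.9% of all gene windows, OPC-only regions in 1 of 8, against 28.6%, and regions in all 4 lists in 7 of 8, against 70.8%. The flanks held 84 regions, of which 9 were OL-only and 7 OPC-only. As shares of all regions these were 10.71% OL-only and 8.33% OPC-only in the flanks, against 15.62% and 9.89% in the whole series, and 27.38% were in all 4 lists, against 24.14%. Other combinations, many of them a peak in a single list, made up 52.17% of the regions in windows and 53.57% in flanks, against 50.35% in the whole series. The counts of OL-only and OPC-only regions were larger by construction when 1 library decided for its group, and were 4 OL-only regions in the windows without the 129O1 OL library and 9 OPC-only regions without the EpiSC5 OPC library.

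**Figure D5:**
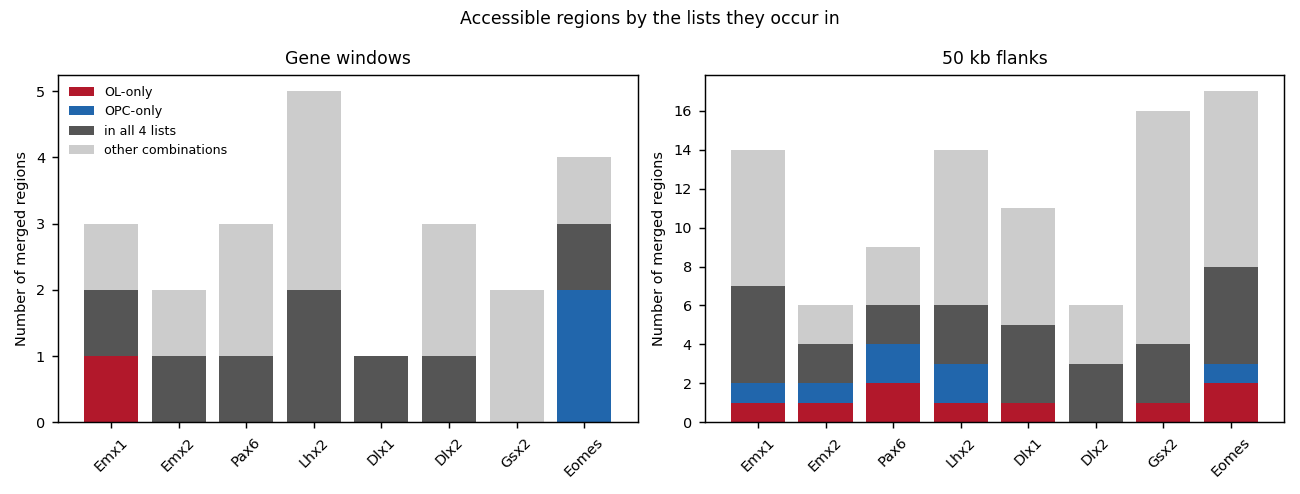
Number of merged regions at each of the 8 genes in gene windows (left) and 50 kb flanks (right), stacked as OL-only (red), OPC-only (blue), in all 4 lists (dark grey) and in other combinations (light grey). Among the gene windows, OPC-only regions occur at Eomes alone and an OL-only region at Emx1 alone.

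Other regulators of forebrain regions were set beside the 8 genes, from lists of 16 dorsal telencephalic, 13 ventral telencephalic and 12 broad forebrain genes. Of these 41 genes, 25 passed the filter on the gene window, 7 fell in OLs, against 8.63% of all tested windows, and 0 rose. Of the 25, 22 had a negative difference, against 53.1% of all tested genes, with a median of -0.37 against -0.02. These lists were chosen with earlier results known and were not tested as sets. Of the dorsal genes 2 of 11 tested fell. Lmx1a, a factor of the cortical hem and roof plate, had 0.720 and 0.557 scaled kb in OLs against 1.86 and 2.65 in OPCs (-1.54 ± 0.19, SE; limma, adjusted p = 2.06e-05). Gli3, a mediator of hedgehog signalling that represses its targets in the pallium, had 3.28 and 5.13 in OLs against 6.04 and 5.96 in OPCs (-0.53; limma, adjusted p = 0.0334). Of the ventral genes 3 of 8 tested fell, among them Meis2 (-0.72; limma, adjusted p = 0.00157), a striatal homeobox gene, and Lhx6 (-0.66; 0.0137), which acts in cortical interneurons. Of the broad forebrain genes 2 of 6 tested fell. Nr2e1, a nuclear receptor of neural stem cells, had 0.522 and 0.149 scaled kb in OLs against 1.23 and 1.15 in OPCs (-1.47, limma, adjusted p = 0.00167). It passed the filter only through its OPC libraries, so that it had to differ. Zic2, a zinc-finger factor of the dorsal midline, had 0.575 and 0.480 scaled kb in OLs against 1.14 and 1.38 in OPCs (limma, adjusted p = 0.00179). Without the EpiSC5 OPC library 4 instead of 7 were called, and without scaling 2.

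Regulators of the midbrain, hindbrain and spinal cord were read in the same way. Of 24 such genes 14 were tested, 3 fell, against 8.63% of all tested windows, 0 rose and 11 had a negative difference, with a median of -0.24. Those that fell were Pax2 (-0.85; limma, adjusted p = 0.0132) and Pax5 (-0.76; 0.00194), which act at the boundary of midbrain and hindbrain, and Nkx2-2 (-0.67; 0.00639), a ventral spinal factor that also acts in oligodendrocyte differentiation. The difference between the forebrain lists and this list was not tested. In the flanks, calls went both ways, with 9 lower and 6 higher of 37 tested forebrain genes and 7 lower and 2 higher of 23 tested genes of the more caudal list.

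Among the 25 tested genes of the other forebrain lists, the covered length of Eomes across the 4 libraries was most like that of Lmx1a, at a Euclidean distance of 0.161 between centred log2 values, followed by Zic2 at 0.662. Emx2 was most like Nr2e1, at 0.431, and Lmx1a, at 0.448. With 4 libraries this describes profiles in which both OL libraries are low.

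Markers of other cell types that such cultures could hold were also examined, beside the 8.63% of all tested windows that were called lower in OLs. Of the tested neuron markers 3 of 7 fell in OLs, with summed covered lengths of 24.3 and 22.8 scaled kb in OLs against 24.9 and 28.1 in OPCs. Only these 3 of the 7 had a negative difference, against 53.1% of all tested genes. The median of the 7 was 0.004 on the log2 scale, against -0.02, so the neuron markers as a list were not lower in OLs. Of the astrocyte markers 2 of 6 fell, with sums of 10.7 and 11.4 in OLs against 13.0 and 13.4 in OPCs. Of these, 1 passed the filter only through its OPC libraries, and so had to differ. Of the vascular markers 3 of 5 fell and 4 of 5 had a negative difference, with sums of 4.30 and 4.94 in OLs against 7.52 and 7.81 in OPCs. All 3 that fell passed the filter only through their OPC libraries, so that they had to differ, and this count supports nothing. Cldn5, a defining endothelial gene, had no covered sequence in any library. Of the pluripotency markers 1 was tested and did not pass, the sums were 1.45 and 1.16 in OLs against 1.51 and 1.55 in OPCs, and Pou5f1 and Zfp42 had no covered sequence in any library. Of the microglia markers 2 were tested and 0 passed by limma, with sums of 2.43 and 2.80 in OLs against 2.75 and 2.51 in OPCs. The part of neuronal, astrocyte and vascular cells in the lower values of Eomes, Emx2 and the Lhx2 flanks in OLs was not tested.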

How the data were processed

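The data were 4 Omni-ATAC-seq libraries of mouse cells. The tools named in the submitters' processing notes are MACS2, Picard, Bowtie2 2.3.2 and Trim Galore 0.3.1, with the build mm10. The sources used here do not state the MACS2 version or threshold, the handling of duplicates or any shift for the Tn5 cut. Transposition was done on 50000 cells for 30 min and reads were single-end of 50 bp, per the labels' protocols. The authors called peaks library by library, and the deposited lists give each peak a position, a score, a fold over background (a ratio), a −log10 p and a −log10 q. The score is 10 times the −log10 q and served for no test. Fold and −log10 q only described, ranked or filtered peaks within a list. Where fold is printed for OLs beside OPCs, depth is unknown and the difference was not tested.

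From these, base pairs covered per window were computed, scaled to the mean list total, and compared between OL and OPC by limma 3.58.1 in R 4.3.3 (trend, two-sided, pseudocount 200 bp, minimum mean 500 bp, adjusted over all genes). The fit was first tried on simulated data, with known differences only at genes with a mean of at least 1000 bp. The simulated noise was independent between libraries and equal for all genes. The Eomes and Emx2 windows lie below that mean, so the simulation does not show how well a difference is recovered there. Regions were formed by merging peaks that overlap by 1 bp or touch. Gene intervals and promoters came from RefSeq GRCm38.p6, and all symbols of the lists matched. Exon, intron and UTR annotation and genome sequence were not used here. An exact permutation of 2 libraries against 2 cannot give p below 0.333. Same-numbered libraries share a cell line, which pairs them, and their deviations from group means correlated at 0.287 over gene windows and 0.252 over flanks. The fit with line as a block was an alternative.

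The genes named are the 8 members, the genes past the threshold in the lists of forebrain and more caudal regulators (at most 6 a list), Pdgfra, Cspg4, Enpp6 and Mag as label checks and the 2 nearest profiles of each called member. Regions named are the OL-only and OPC-only regions (at most 2 of each) and the shared region with the most covered sequence per window. Further regions, gene starts among them, and the marker genes Sox6, Mbp, Cnp, Cldn5, Pou5f1 and Zfp42 were named after their values were seen. The members and lists were chosen with earlier results of these data known. 1 gene that the rule takes is not reported here.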

Additional observations from a re-analysis of the deposited data

Results flagged for a closer look

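In 6 cases the OL minus OPC difference had opposite signs in the lines 129O1 and EpiSC5, with 1 library per group in each line, so these differences between lines were not tested. Opposite signs also occurred at 25.5% of all tested gene windows and 23.8% of all tested flanks. On the log2 scale, the gene window of Dlx1 gave 0.18 for 129O1 and -1.12 for EpiSC5, which are 1.295 apart. In the flanks of Dlx2 it was 0.36 and -0.74, 1.099 apart, and in the flanks of Dlx1, which share peaks with those of Dlx2, it was 0.10 and -0.21, 0.317 apart. In the gene window of Emx1 the 129O1 value of -0.12 lay -0.566 from the EpiSC5 value of 0.44, and in its flanks the values were 0.25 and -0.18, 0.435 apart. In the flanks of Gsx2 the 129O1 value of -0.09 lay -0.461 from the EpiSC5 value of 0.37.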

How the results depend on the processing

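Eomes kept its call under all 15 alternatives that gave a value, Lhx2 in the flanks under 14 of 17 and Emx2 under 7 of 13. Beyond the losses named above, Emx2 was also lost with lists cut to equal length (-1.71, adjusted p = 0.0502). Emx2 gave no value with the gene interval alone, a filter of 1000 bp, the best 50% of each list by q or without the EpiSC5 OPC library. The Eomes window gave none with the filter of 1000 bp or the best 50% of each list. With the replicate block, which here is the cell line, 5549 instead of 3386 flanks were called and Eomes in the flanks passed, and the block changed no other call of the 8 genes, with Emx2 at 0.0454. The cause of these changes was not tested. Where 1 library was left out, the lone library of its group was assumed to vary like the other group. Separate fits, each over its own set of genes past the filter, called 583 gene windows with no scaling, 597 with peak numbers, 742 with summits, 1637 with the best 50% of each list and 2005 to 2300 when leaving out 1 library, against 2857. In the flanks these counts were 1978, 1330, 1387, 1885 and 1382 to 3407, with 1382 without the EpiSC5 OL and 1588 without the 129O1 OL library. Of calls in gene windows 69.2% were higher in OLs by peak number and 69.5% by summits, against 56.1%. In the same order of alternatives, 2, 1, 1, 4 and 4 to 9 of the other forebrain genes were called, and 1, 1, 1, 1 and 2 to 3 of the more caudal genes. In the best 50% of each list there were 0 OL-only and 0 OPC-only regions in the 8 windows and 4 OL-only regions in the flanks. Leaving out 1 library gave 1 to 4 OL-only and 3 to 9 OPC-only regions in the windows, and 10 to 20 OL-only and 8 to 20 OPC-only regions in the flanks. The highest counts came without the 129O1 OL library (4 and 20 OL-only) and without an OPC library (9 OPC-only in windows without EpiSC5, 20 in flanks without 129O1 and 17 without EpiSC5). With no read counts, the lists set no limit on how much accessibility a missing peak allows.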
